A study of Mus musculus with 5 samples.

Results

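Glycolysis is the run of cytosolic reactions that splits glucose into pyruvate, and the expression of 8 of its enzymes with the transcription factor Hif1a is described here in CD4 T cells of mice with colitis. The 9 genes, chosen by name, were Aldoa, Tpi1, Gapdh, Pgk1, Pgam1, Eno1, Pkm, Ldha and Hif1a, and were looked up by symbol among the 10288 gene symbols of the 4 deposited count tables. The 7 genes Tpi1, Gapdh, Pgk1, Eno1, Pkm, Ldha and Hif1a had a line in at least 1 table. Aldoa and Pgam1 were not analysed here, so sums run over 6 enzymes.

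The cells had been sorted from colon tissue or lymph node, and libraries were made from the 3′ ends of their poly(A) RNA. There were 4 groups of 1 library each: colon light, colon control, lymph node light and lymph node control. Mice of the light groups had been irradiated every 2 days for 5 minutes with a 980 nm laser (1.22 W, 80% duty, a 4 cm2 spot). Mice of all 4 groups had colitis as the design text describes it, and the labels give no strain, sex, age, number of animals or treatment of the controls beyond the word control. Since a group is 1 library, differences could not be set against a spread between replicates, and p-values were not computed.

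Resting T cells draw mainly on mitochondrial respiration, and activated T cells raise glycolysis and turn much of the pyruvate into lactate. HIF-1, a pair of the Hif1a protein with Arnt, binds DNA at hypoxia response elements and is known to raise the transcription of glucose transporters, most glycolytic enzymes and lactate dehydrogenase. Under normal oxygen, prolyl hydroxylases (the Egln genes) mark the Hif1a protein for destruction through Vhl, so Hif1a mRNA is not a measure of HIF-1 activity. In T cells HIF-1 is best known for its part in the balance of Th17 and regulatory T cells.

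The core of the hypoxia response element was searched as ACGTG and GCGTG on both strands in the 250 bases before each annotated gene start (RefSeq, GRCm38.p6). All 9 genes matched the sequence table, with 15 start windows in all, and 12 of the 15 windows, in 8 of the 9 genes, held at least 1 match. Tpi1 was the gene with none. Of the 32851 windows of all genes, 38.6% held a match (16.6% for ACGTG and 28.2% for GCGTG). The windows shown are those of the dehydrogenases Gapdh and Ldha, of the kinase Pgk1 and of Hif1a itself, in lower case with the matches in capitals; where CACGTG appears, it is ACGTG read on both strands. They are chr6:125165774-125166023 on the minus strand for Gapdh, chr7:46845554-46845803 on the plus strand for Ldha, chrX:106186850-106187099 on the plus strand for Pgk1 and chr12:73907617-73907866 on the plus strand for Hif1a. Ldha had 5 matches, Hif1a 3, and Gapdh and Pgk1 had 2 each.
Gapdh: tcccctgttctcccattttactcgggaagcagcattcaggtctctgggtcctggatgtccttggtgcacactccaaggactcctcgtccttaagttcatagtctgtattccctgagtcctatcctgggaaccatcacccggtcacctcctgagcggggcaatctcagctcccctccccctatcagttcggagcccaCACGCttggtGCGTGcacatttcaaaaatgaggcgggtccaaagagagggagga
Ldha: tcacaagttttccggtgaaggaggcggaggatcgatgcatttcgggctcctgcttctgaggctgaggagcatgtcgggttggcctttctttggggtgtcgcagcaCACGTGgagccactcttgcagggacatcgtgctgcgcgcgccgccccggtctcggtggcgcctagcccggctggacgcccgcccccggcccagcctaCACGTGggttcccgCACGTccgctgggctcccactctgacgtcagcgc
Pgk1: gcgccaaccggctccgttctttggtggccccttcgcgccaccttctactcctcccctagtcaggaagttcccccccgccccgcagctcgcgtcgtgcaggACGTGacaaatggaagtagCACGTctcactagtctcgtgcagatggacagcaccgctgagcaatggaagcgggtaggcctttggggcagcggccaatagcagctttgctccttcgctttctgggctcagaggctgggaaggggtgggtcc
Hif1a: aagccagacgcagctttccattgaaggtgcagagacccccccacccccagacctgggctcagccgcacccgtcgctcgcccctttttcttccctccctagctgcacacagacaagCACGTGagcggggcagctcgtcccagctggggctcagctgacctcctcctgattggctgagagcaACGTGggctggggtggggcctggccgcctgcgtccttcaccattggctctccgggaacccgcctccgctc
A match is a stretch of letters and does not show that HIF-1 binds there.

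Barcode columns of a table held overlapping sums of the same molecules, so summed counts were converted to molecule-equivalents. These are summed counts divided by a library-wide weighted mean of columns per molecule. For a scarce gene they can lie above or below its number of molecules, as for Pgk1 in lymph node light, with 2.23 for 1 molecule. The deposited counts summed to between 435847 (colon control) and 1959296 (colon light), which is 6112 to 38746 molecule-equivalents. Levels are given in CPM (all genes of a library sum to 1e+06), with 95% Clopper-Pearson intervals on molecule-equivalents that cover counting error only. The floor of 3 molecule-equivalents lay at 77.4 CPM in colon light, 491 CPM in colon control, 142 CPM in lymph node light and 262 CPM in lymph node control. Each line of the 7 genes was also an exact sum of column patterns, so whole molecules could be counted and are given beside the levels. The 16 T-cell markers made up 0.356% of the colon light library, 0.940% of lymph node light and 1.16% of lymph node control. In colon control 4 of 12 usable T-cell markers had a count, at 0.0429%, with Trac, Trbc1, Cd2, Cd5 and Il7r at 0, and Cd3d, Cd3e, Cd3g and Cd4 could not be used because their lines repeated those of another table. That library thus held few transcripts that define the labelled cell type. Its table shared 5 barcodes with colon light, whereas each pair of the other 3 tables shared 373 or 374.

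In the lymph node, the 6 enzymes together were lower in the light library. They summed to 1223 CPM (797 to 1794; 33 molecules) in light, against 2683 CPM (1821 to 3812; 32 molecules) in control. About the same number of enzyme molecules thus stood among 26708 molecules in the light library and among 12224 in control. The log2 ratio of light over control was -1.11 with an interval of -1.95 to -0.33. All 6 enzymes had a ratio below 0, although Ldha was at 0.30 and Eno1 at 0.03 under median-of-ratios scaling and Ldha at 0.01 with centring on abundant genes and 0.04 with each recovered molecule counted once, and for 5 of them the interval included 0. The median ratio was -0.16 over genes with at least 20 molecule-equivalents in the pair of libraries and 0.69 over all genes with a count. Median-of-ratios scaling moved the sum to -0.64 with an interval of -1.47 to 0.15, which includes 0. T-cell markers made up 0.940% of light and 1.16% of control, a ratio of -0.30 (-0.63 to 0.02), and their part in the sum was not tested. In libraries of bulk cells, fewer cells of a type and less RNA per cell cannot be told apart.

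Tpi1, which interconverts the triose phosphates, had 49.6 CPM (1.44 to 268; 2 molecules) in lymph node light, against 311 CPM (76.4 to 838; 2 molecules) in control. Its light value lay under the floor, and the log2 ratio of -2.09 had an interval of -8.11 to 0.76. Gapdh, which oxidises glyceraldehyde phosphate and forms NADH, had 492 CPM (239.9 to 895; 12 molecules) in light and 947 CPM (470.4 to 1701; 12 molecules) in control. The ratio was -0.90 (-2.32 to 0.42), so the libraries were not set apart for this enzyme. Pgk1, the kinase of the first ATP-forming step, had 106 CPM (15.1 to 359.6; 1 molecule) in light and 212 CPM (34.0 to 689; 2 molecules) in control. Both values were under their floors.

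Eno1, the enolase that makes phosphoenolpyruvate, had 228 CPM (72.1 to 541; 6 molecules) in lymph node light and 311 CPM (76.4 to 838; 4 molecules) in control, a ratio of -0.40 (-2.75 to 2.03). Pkm, the pyruvate kinase that ends the pathway with ATP and pyruvate, had 90.8 CPM (10.2 to 336; 3 molecules) in light, against 618 CPM (250.01 to 1267; 8 molecules) in control. It was the enzyme whose interval left out 0, with a log2 ratio of -2.42 (-6.16 to -0.35), and its light value was under the floor. With median-of-ratios scaling that interval reached 0.13. Intervals of single genes are not adjusted for the number of genes, and the share of all genes whose interval leaves out 0 is not given. Ldha, which reduces pyruvate to lactate, had 256 CPM (87.9 to 580.1; 9 molecules) in light and 284 CPM (63.9 to 798; 4 molecules) in control. Its ratio of -0.13 (-2.40 to 2.40) was the nearest to 0 of the 6.

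Hif1a had 408 CPM (183 to 785; 9 molecules) in lymph node light, against 236 CPM (43.2 to 725; 3 molecules) in control, where it was under the floor. The log2 ratio was 0.72 (-1.30 to 3.48). Set against the 6 enzymes of its own library, which removes the scaling to depth, Hif1a was 1.92 higher on the log2 scale in light than in control, with an interval of -0.19 to 4.04 that included 0.

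**Figure D1:**
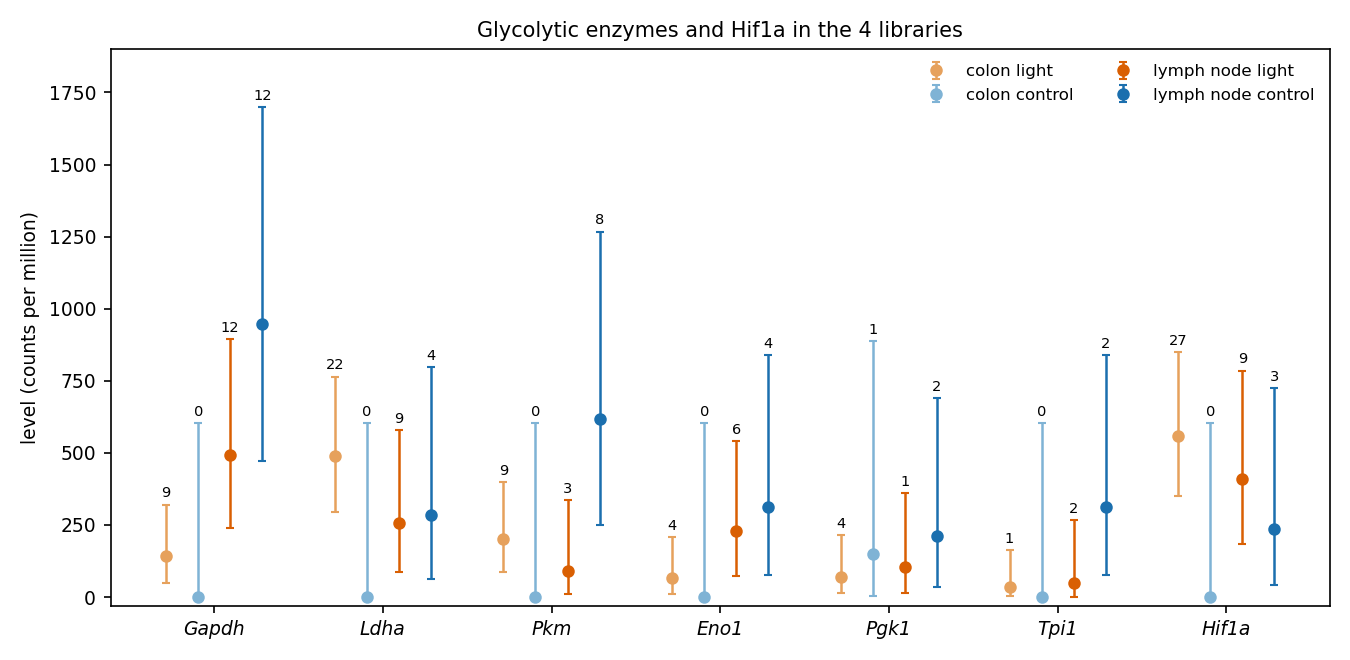
Level in CPM (vertical axis) of the 7 genes with a line, in colon light, colon control, lymph node light and lymph node control; points are levels, bars are 95% counting intervals and the number above each bar is the count of whole molecules. Gapdh and Pkm were highest in lymph node control, at 947 and 618 CPM, Ldha and Hif1a were highest in colon light, at 489 and 559.9 CPM, and Pgk1 with 1 molecule was the one gene above 0 in colon control.

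The background of the lymph node comparison was narrow for abundant genes and wide for scarce ones. Among 187 genes that reached 20 molecule-equivalents in the light and control libraries together, 5.88% were at least 2-fold lower in light and 5.35% at least 2-fold higher, with a median ratio of -0.16. Gapdh was the one member of the 9 to pass that filter, with 21.2 molecule-equivalents, and it was not 2-fold lower. With each recovered molecule counted once it was at -1.08 (-2.41 to 0.16), past 2-fold. Median-of-ratios scaling turned the background to 32 genes 2-fold higher and 2 lower, against 10 and 11. Without the filter, 2 of the 7 members (Tpi1 and Pkm) were at least 2-fold lower, where 24.5% of 6884 genes were, and none was 2-fold higher, where 35.9% were. The median ratio was -0.87 over the 6 enzymes and 0.69 over all genes with a count, many of which rest on 1 or a few molecules. With each recovered molecule counted once, Tpi1 was short of 2-fold, at -0.91, and Pgk1 past it, at -1.58. Under median-of-ratios scaling Hif1a was past 2-fold higher, at 1.15.

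**Figure D2:**
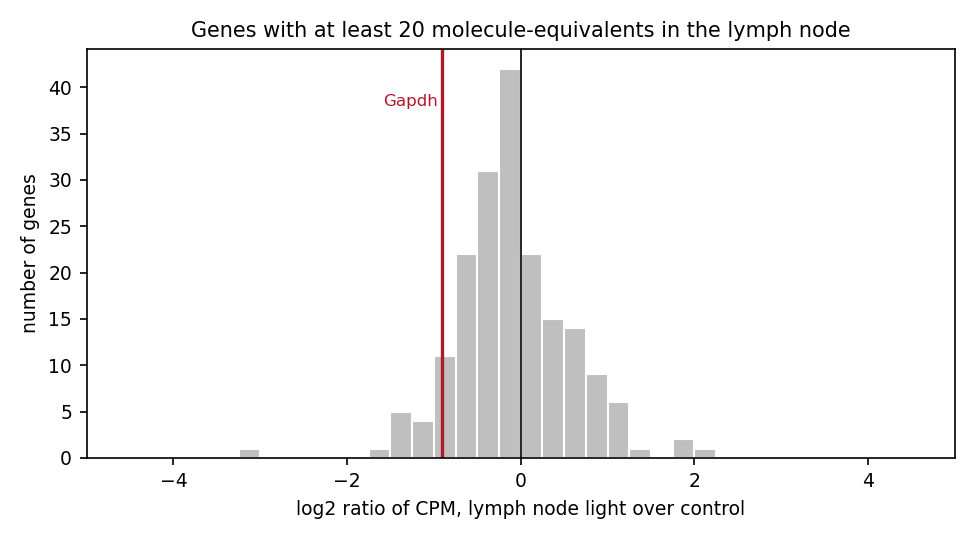
Histogram of the log2 ratio of CPM, lymph node light over control (horizontal axis), for the 187 genes that reached 20 molecule-equivalents in the pair of libraries; the vertical axis counts genes and the red line marks Gapdh. Gapdh, at -0.90, lay on the low side of the bulk of genes, whose median was -0.16, and short of the 2-fold limit.

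In the colon, the comparison was limited by the control library. The 6 enzymes summed to 1005 CPM (715 to 1374; 49 molecules) in light, against 149.9 CPM (2.84 to 887; 1 molecule) in control. The log2 ratio was 2.58 (0.10 to 8.50). The control value was a single Pgk1 molecule, 0.916 molecule-equivalents, under the floor. Among 204 genes that reached 20 molecule-equivalents in light and control together, 76.5% were at least 2-fold higher in light, 14.7% were at least 2-fold lower and the median ratio was 2.19. Genes can pass that filter through the deeper light library alone, which raises this median. Without the filter the median of all genes with a count was 0.90. With library totals rescaled so that the abundant genes centre on 0, and the prior count applied to the rescaled totals, the enzymes' ratio was 0.54 (-2.09 to 6.31), an alternative chosen after seeing the data, and 63 and 53 genes were past 2-fold higher and lower, against 156 and 30. Median-of-ratios scaling moved the enzymes the other way, to 3.72 (1.43 to 9.84). The interval also included 0 without Ldha (1.64, -0.95 to 7.57) and with the pseudogenes of all 8 enzymes added (1.13, -0.48 to 3.50), most of whose count in control is the Aldoa pseudogene Gm8963. With the pseudogenes of the 6 enzymes alone, added after seeing the data, the ratio was 2.10 (-0.003 to 6.10).

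Hif1a had 559.9 CPM (349.6 to 850.0; 27 molecules) in colon light, against 0 in control, where the interval of a count of 0 reached 603 CPM. The light level lay above the control's floor of 491 CPM but below that upper limit, and the interval of the log2 ratio began at -0.23, so the libraries were not set apart. Hif1a passed the filter through its 21.7 molecule-equivalents in light alone, which says nothing about a difference. Ldha had 489 CPM (295 to 765; 22 molecules) in light and 0 in control, and the light value lay just under the control's floor and under the same upper limit. Pkm had 201 CPM (85.7 to 399.6; 9 molecules), Gapdh 143 CPM (49.8 to 321; 9 molecules), Eno1 65.8 CPM (11.2 to 209; 4 molecules) and Tpi1 36.2 CPM (2.26 to 161; 1 molecule) in light, and each was at 0 in control. All 4 levels were below the floor and the upper limit of a count of 0 in that control library, so a difference was not detectable at this depth. Pgk1 had 69.9 CPM (12.8 to 215; 4 molecules) in light and 149.9 CPM (2.84 to 887; 1 molecule) in control, a ratio of -0.90 (-4.95 to 5.06). The T-cell markers that could be compared summed to 0.287% in colon light and 0.0429% in colon control, a log2 ratio of 2.68 (1.06 to 5.27). Myeloid markers made up 0.235% of colon light and 0.0618% of colon control, a ratio of 1.89 (0.49 to 3.91). The part of either in these values was not tested.

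Between the light libraries, which are the deeper pair, the summed enzymes did not separate and single enzymes went different ways. The sum was 1005 CPM (715 to 1374; 49 molecules) in colon light and 1223 CPM (797 to 1794; 33 molecules) in lymph node light, a log2 ratio of -0.28 (-1.04 to 0.49). Gapdh was lower in the colon, at 143 CPM (49.8 to 321; 9 molecules) against 492 CPM (239.9 to 895; 12 molecules) in the lymph node. The ratio of -1.67 had an interval of -3.58 to -0.16. The interval included 0 with median-of-ratios scaling and without ribosomal RNA genes and Gm12374 in the total. It also included 0 with centring on abundant genes and with each recovered molecule counted once. The other 3 of 7 alternatives left out 0, but the prior count does not enter the interval and keeping repeated lines hardly changed it. Deposited sums as raw counts, the last of them, counted molecules repeatedly. The Gapdh pseudogenes Gm11960 and Gm9568 had summed counts of 86 and 69 in colon light, beside 280 for Gapdh, and 0 in lymph node light. The ratio of Gapdh was not tried with them added. Ldha had the higher value in the colon, 489 CPM (295 to 765; 22 molecules) against 256 CPM (87.9 to 580.1; 9 molecules) in the lymph node, with a ratio of 0.89 (-0.50 to 2.64). Hif1a had 559.9 CPM (349.6 to 850.0; 27 molecules) in colon light and 408 CPM (183 to 785; 9 molecules) in lymph node light, a ratio of 0.44 (-0.74 to 1.79). Neither Ldha nor Hif1a was set apart between the tissues in these values, although with median-of-ratios scaling the ratio of Ldha was 1.40 with an interval of 0.05 to 3.18, which leaves out 0.

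The other enzymes were scarce in both light libraries. Pkm had 201 CPM in colon light and 90.8 CPM in lymph node light, a ratio of 1.02 (-1.22 to 4.52). Eno1 had 65.8 CPM in colon light and 228 CPM in lymph node light, a ratio of -1.57 (-4.74 to 0.69). Pgk1 had 69.9 CPM in colon light and 106 CPM in lymph node light, and Tpi1 had 36.2 CPM in colon light and 49.6 CPM in lymph node light, with ratios of -0.50 (-3.80 to 2.82) and -0.32 (-5.52 to 5.43).

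**Figure D3:**
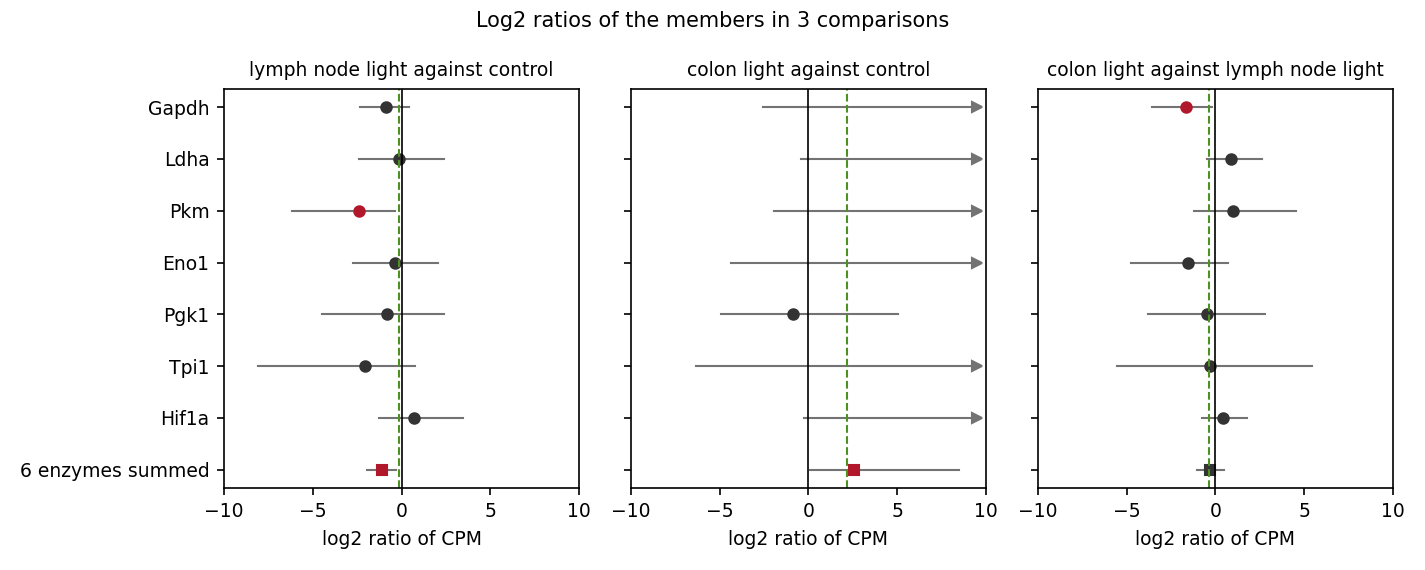
Log2 ratio of CPM (horizontal axis) of each gene and of the 6 enzymes summed, in 3 comparisons with the first-named library on top; bars are 95% counting intervals, arrows are open intervals against a count of 0, red marks an interval that leaves out 0 and the green dashed line is the median of genes with at least 20 molecule-equivalents. The summed enzymes were at -1.11 in the lymph node, 2.58 in the colon and -0.28 between the light libraries. In the colon the green line is at 2.19, and the median without the filter was 0.90. Genes can pass the filter there through the deeper light library alone.

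The balance of enzymes within a library does not depend on scaling. Whole molecules of Gapdh and Ldha stood at 9 and 22 in colon light, at 12 and 9 in lymph node light and at 12 and 4 in lymph node control. Gapdh over Ldha was -2.72 on the log2 scale in colon light relative to lymph node light, with a normal interval of -4.75 to -0.69 on molecule-equivalents. It was -1.70 on whole molecules, with an exact interval of -3.61 to 0.18. Of the 15 enzyme pairs, 3 intervals left out 0 on molecule-equivalents (Gapdh with Ldha, Gapdh with Pkm, and Ldha with Eno1) and 0 on whole molecules. Within the lymph node, light against control, 0 of the 15 did by either count. These intervals are not adjusted for the number of pairs, and the Gapdh and Ldha pair was chosen after its values were seen. Pseudogenes of Gapdh and Pkm that were counted in colon light were not added here.

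Among 299 genes that reached 20 molecule-equivalents in the light libraries together, 13.4% were past 2-fold upward in the colon and 19.4% past 2-fold downward, with a median of -0.35. That balance turned to 62 higher and 22 lower genes with median-of-ratios scaling and to 54 and 28 without ribosomal RNA genes and Gm12374, against 40 and 58. Ldha and Hif1a were the 2 members to pass, and neither was past 2-fold. Without the filter, 1 member (Pkm) was at least 2-fold higher in the colon, where 26.9% of 8722 genes were, and 2 members (Gapdh and Eno1) were at least 2-fold lower, where 34.8% were. Ldha was past 2-fold under median-of-ratios scaling (1.40), without ribosomal RNA genes and Gm12374 (1.25) and with centring (1.22). With each recovered molecule counted once, Pkm was short of 2-fold, at 0.64, and Tpi1 past 2-fold lower, at -1.40. Cell types differed between these libraries too. T-cell markers made up 0.356% of colon light and 0.940% of lymph node light, a log2 ratio of -1.40 (-1.72 to -1.08) with 15 of 16 markers counted. Myeloid markers made up 0.235% of colon light and 0.0543% of lymph node light, a ratio of 2.08 (1.22 to 3.14) with 11 of 16 counted, and Cd14, Itgam, Adgre1, S100a8 and S100a9 at 0 in both. All 13 epithelial markers were at 0 in the 4 libraries. The part of these cells in the members' values was not tested.

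The order of levels was the same for few members. Lymph node control was highest for Tpi1, Gapdh, Pgk1, Eno1, Pkm and the summed enzymes, and colon light was highest for Ldha and Hif1a. Colon control was lowest for every member but Pgk1. Intervals of neighbours in the order overlapped for every single gene. The one pair of neighbours whose intervals did not overlap was lymph node control and lymph node light for the summed enzymes.

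The 5 genes whose pattern over the 4 libraries was most like that of the summed enzymes were B2m, Rps26, Rps24, Actg1 and Hmgb2, out of 373 candidates. The root mean square difference of centred log2 CPM was 0.16 for B2m and 0.29 for Hmgb2. B2m, the light chain of MHC class I, had 1439 CPM in colon light, 231 in colon control, 1988 in lymph node light and 3186 in lymph node control. Actg1, a cytoplasmic actin, had 1616 CPM in colon light, 385 in colon control, 2388 in lymph node light and 3844 in lymph node control. These patterns run over 4 libraries, one of them shallow, and are a description.

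The remaining glycolysis genes, which bring in glucose, prime it and carry lactate out, had nearly the same sum in both lymph node libraries. Of 26 listed, 11 had a count there, and they summed to 1020 CPM in light and 996 CPM in control, a log2 ratio of 0.03 (-1.06 to 1.21). Among the 11, 4 were past 2-fold in each direction, beside 35.9% higher and 24.5% lower of all genes with a count, and the median was 0.17, beside 0.69. Hk1, the main hexokinase of most cells, had 119.8 CPM in light and 367 CPM in control, a ratio of -1.40 (-4.63 to 1.00). Bsg, the chaperone of the lactate carriers, had 154 CPM in light and 211 CPM in control.

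Between the light libraries, 1 of the named genes of these lists had an interval that left out 0. Hk2, an inducible hexokinase, had 282 CPM in colon light and 18.7 CPM in lymph node light, where its 0.395 molecule-equivalents were under the floor. The log2 ratio of 3.07 had an interval of 0.13 to 16.58. Hk2 was among the named genes through its 10.9 molecule-equivalents in colon light, so the choice favoured the library where it was high. These intervals are not adjusted for the number of genes, and Hk2 was not tried under the other scalings. In colon control Hk2 was at 0. Pfkl, a phosphofructokinase, had 47.5 CPM in colon light and 245 CPM in lymph node light, a ratio of -2.03 (-5.94 to 0.28). The 12 genes with a count summed to 763 CPM in colon light and 1020 CPM in lymph node light, a ratio of -0.41 (-1.27 to 0.45).

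Partners and regulators of Hif1a were scarce. In the lymph node 5 of 14 had a count, with a summed ratio of light over control of -0.73 (-1.80 to 0.32). Elob, a subunit of the Vhl ubiquitin ligase, held most of that sum, with 623 CPM in light and 1003 CPM in control, a ratio of -0.66 (-1.94 to 0.59). HIF targets outside glycolysis had 8 of 16 with a count and a summed ratio of -0.71 (-2.01 to 0.55); 4 of the 8 were at least 2-fold lower, where 24.5% of all genes with a count were, and none 2-fold higher, where 35.9% were. Higd1a, a mitochondrial protein induced by hypoxia, had 252 CPM in light and 234 CPM in control, and Bnip3l, a mitophagy receptor, had 213 CPM in light and 177 CPM in control.

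The neighbouring pathways had summed ratios nearer to 0 than the 6 enzymes in the lymph node. Genes that bring pyruvate into the mitochondrion (5 of 13 with a count) had -0.12 (-1.98 to 1.91), the tricarboxylic acid cycle (11 of 18) -0.20 (-1.31 to 0.95) and the pentose phosphate pathway (4 of 7) -0.67 (-2.72 to 1.30). Inducers of glycolysis such as Myc and the mTOR genes (5 of 11) had 0.89 (-1.32 to 4.20). Every one of these intervals included 0 and overlapped that of the 6 enzymes, so the enzymes were not set apart from them. Between the light libraries, colon over lymph node, the summed ratio was -0.46 (-1.43 to 0.50) for Hif1a partners, -0.68 (-1.91 to 0.51) for HIF targets, -0.66 (-1.61 to 0.27) for the tricarboxylic acid cycle and 0.38 (-1.08 to 2.10) for the pentose phosphate pathway. Those intervals too included 0. Against the colon control none of the 7 lists beside the 6 enzymes and Hif1a had an interval that left out 0. The tricarboxylic acid cycle and pentose phosphate genes were all at 0 there, and the other lists held 0.676 to 2.96 molecule-equivalents. The 6 enzymes, with 0.916 molecule-equivalents there, had the interval of 0.10 to 8.50 given above.

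**Figure D4:**
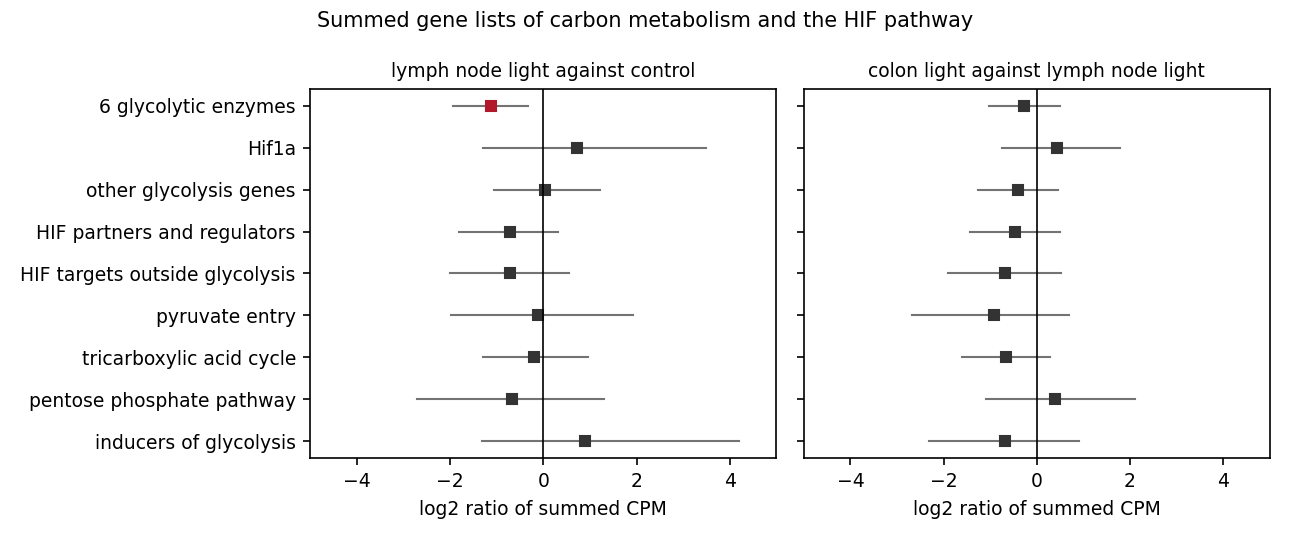
Log2 ratio of summed CPM (horizontal axis) for the 6 enzymes, Hif1a and 7 gene lists, in lymph node light against control and in colon light against lymph node light; squares are ratios and bars 95% counting intervals, red where the interval leaves out 0. The 6 enzymes in the lymph node, at -1.11, are the one red square.

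The genes lie apart in the genome (GENCODE annotation, mm10). Gapdh spans 125161715 to 125166467 and Tpi1 124810586 to 124814296 on chromosome 6, both on the minus strand, Ldha 46841475 to 46855627 on chromosome 7, Pkm 59656368 to 59679375 on chromosome 9 and Eno1 150236721 to 150248879 on chromosome 4. Pgk1 spans 106187100 to 106203699 on chromosome X and Hif1a 73901375 to 73947530 on chromosome 12. Exons of Gapdh overlap Iffo1 and those of Tpi1 overlap Spsb2, which had no count in any library. Pkm exons overlap Gm49759 and Hif1a exons overlap Gm49321, with no count listed for either. Exons of Hif1a overlap Gm15283, which had 83.7 CPM in colon light, 89.9 CPM in colon control, 23.4 CPM in lymph node light and 0 in lymph node control, so reads of those genes cannot be fully told apart from Hif1a. The annotation holds 334 pseudogenes of Gapdh among 411 of all members (at least 80% identity over at least 70% of the pseudogene). No pseudogene had a count in a lymph node library. In colon light the Gapdh pseudogenes Gm11960 and Gm9568 had summed counts of 86 and 69, beside 280 for Gapdh itself, and the Pkm pseudogene Gm5371 had 30, beside 394 for Pkm. In colon control the Ldha pseudogene Gm7997 had a summed count of 39 and the Aldoa pseudogene Gm8963 109, where Ldha was at 0.

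Members were counted in different column patterns. Of 304 patterns in colon light, 45 held an enzyme, 25 held Hif1a and 3 held both. In lymph node light 28 of 285 patterns held an enzyme, 9 Hif1a and 2 both, and in lymph node control 28 of 312 held an enzyme, 3 Hif1a and 2 both. In colon control 1 of 310 patterns held a member. Single members rested on few patterns where they had few molecules, such as Pgk1 on 1 in lymph node light and 2 in lymph node control, and Hif1a on 3 in lymph node control.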

How the data were processed

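Per the labels' protocols, the oligo-dT probe used for reverse transcription of poly(A) RNA carried a barcode of 7 bases and a molecular identifier of 8 bases. The submitters' processing notes name FastQC, STAR 2.5.1a and mm10, with the counter not given in the sources used here. Tables as deposited by the authors hold raw counts, whole numbers per gene and barcode column. The unnamed last line of each lymph node table (50.0% of its counts) and lines repeated between tables (Foxp3 in all, Cd3d, Cd3e, Cd3g and Cd4 in colon control) were left out of totals. The barcode sheet of a pooled sample was not used.

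Each molecule was counted in many columns. Gene lines were solved by non-negative least squares as sums of column patterns. Patterns were seen in at least 2 genes, or in 1 gene where they helped to solve another. This solved 97.1% to 99.3% of genes, holding 51.2% to 77.6% of counts, and 0 of 300 shuffled lines per library. The patterns came from these same lines, so a line that is itself a pattern was solved by construction. Summed counts were divided by the weighted columns per molecule (50.6 colon light, 71.0 colon control, 50.7 lymph node light, 84.7 lymph node control). Levels are CPM. Log2 ratios used a prior count of 0.5, and called means at least 2-fold at 20 or more molecule-equivalents. Exact binomial intervals of ratios were taken on molecule-equivalents; intervals planned on summed counts would have counted molecules repeatedly. The steps were tested on simulated data. Coordinates are from GENCODE on mm10 (10133 of 10288 symbols matched); pseudogenes of the members were found with BLAST 2.17.0. Python 3.11.15, numpy 2.4.6, scipy 1.17.1 and pandas 2.3.3 were used.

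The members and lists were chosen with earlier results of these data known. Named genes are all members, the list genes with at least 20 molecule-equivalents or else the 2 most abundant, the 5 genes of most like pattern, and pseudogenes of members with a count. Some of these are given only within their list's sum. Alternatives in scaling, total, prior, repeated lines, molecule counting, filter and composition of the sum were tried, and 2 more, centring on the median of abundant genes and adding only the pseudogenes of the 6 enzymes, were chosen after seeing the data.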

Additional observations from a re-analysis of the deposited data

Results flagged for a closer look

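For 5 enzymes and for their sum, the light value was the lower one in the lymph node and the higher one in the colon, as point values. In the lymph node the log2 ratio was -1.11 for the sum, -0.90 for Gapdh, -0.13 for Ldha, -2.42 for Pkm, -0.40 for Eno1 and -2.09 for Tpi1, whereas in the colon the sum had 2.58 and the 5 enzymes were counted in light and at 0 in control. The colon control held 1 enzyme molecule, 0.916 molecule-equivalents, and its floor was 491 CPM, above the colon light level of each of the 5 enzymes. In the lymph node the interval left out 0 for Pkm and the sum, and Ldha and Eno1 changed sign under some scalings. Opposite directions are thus not established. The same directions were seen in the median ratio of genes with at least 20 molecule-equivalents, -0.16 in the lymph node and 2.19 in the colon. Over all genes with a count, the medians were 0.69 in the lymph node and 0.90 in the colon. The share of all genes that were lower in the lymph node and higher in the colon is not given, so the pattern is not shown to be particular to the enzymes. Whether the ratios differ between the tissues was not tested, since each group has 1 library.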

How the results depend on the processing

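No paired analysis was possible because each group has 1 library and the labels give no replicate numbers. For the 6 enzymes in the lymph node, the log2 ratio lay between -1.21 and -0.64 over 10 alternatives, and the interval left out 0 in 9. Some of the 9 could hardly move it, since the prior count does not enter it and no pseudogene had a count there. The same holds for keeping repeated lines, and deposited sums as raw counts count molecules repeatedly. The interval also left out 0 without ribosomal RNA genes and Gm12374 (-1.87 to -0.25) and with each recovered molecule counted once (-1.83 to -0.33). Scaling by the median of ratios gave -0.64 (-1.47 to 0.15). Leaving out Gapdh, the enzyme of largest count, gave -1.21 (-2.31 to -0.22), and centring on abundant genes gave -0.96 (-1.79 to -0.18). Pkm in the lymph node kept an interval without 0 in 6 of 7 alternatives. The prior count, the repeated lines and the raw counts are again of little weight there. In the colon the sum lay between 0.54 and 3.72; without Ldha it was 1.64 (-0.95 to 7.57), with the pseudogenes of all 8 enzymes 1.13 (-0.48 to 3.50), with those of the 6 alone 2.10 (-0.003 to 6.10) and centred on abundant genes 0.54 (-2.09 to 6.31). Between the light libraries it lay between -0.88 and 0.26, above 0 with median-of-ratios scaling (0.26), without ribosomal RNA and Gm12374 (0.09) and with centring (0.07). All 105 alternative values of single members stayed within the members' own intervals, which were wide, so this was a weak check. Signs still changed, as for Pgk1 between the light libraries, from -0.50 to 0.90 with each recovered molecule counted once. In the colon, members at 0 in control were not among the 105 values. The size factors of the median-of-ratios scaling differed from the totals by 0.48, 1.34 and 0.54 on the log2 scale in the lymph node, the colon and the light libraries, and ratios of scarce members moved by less because of the prior count.

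Counts of genes past 2-fold moved more. With median-of-ratios scaling the lymph node had 32 higher and 2 lower genes, against 10 and 11, and the light libraries 62 higher and 22 lower, against 40 and 58. Centring gave 63 higher and 53 lower in the colon, against 156 and 30, and 30 lower between the light libraries. Without ribosomal RNA genes and Gm12374 the light libraries had 28 lower. With no filter the counts were 2468 higher and 1688 lower in the lymph node, 3645 and 1805 in the colon and 2350 and 3036 between the light libraries. At a filter of 100 molecule-equivalents they were 1 and 3, 18 and 7, and 3 and 2. The cause of these moves was not tested beyond the number of genes that pass each filter. Depth limits what can be seen: a member with fewer than 3 molecule-equivalents was counted in at most a few molecules, and a count of 0 in colon control has an interval up to 603 CPM, with the floor at 491 CPM.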
